A study of Mus musculus with 6 samples.

Results

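The genes described here present peptides on MHC class I molecules: the light chain gene B2m, the heavy chain genes H2-K1, H2-D1 and H2-T23, the peptide transporter genes Tap1 and Tap2, the loading factor gene Tapbp, and the immunoproteasome subunit genes Psmb8 and Psmb9. Every probe set whose only gene symbol in the platform annotation was one of these 9 names was taken. This gave 25 of 45101 probe sets, for 8 of the 18193 genes that the annotation names in this way. H2-T23 had 0 such probe sets, because the annotation gives its probe sets a further symbol. Of the 25, 21 were bright enough to be tested, and the remaining 4, all of H2-D1 or Tap1, are given by their values.

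The RNA came from T cells of mouse lymph nodes and was hybridised to 6 Affymetrix arrays, each of 1 colour. The labels put 3 arrays in a group of Ezh2 deficient T cells and 3 in a group of T cells from Ezh2 fl/fl mice, whose Ezh2 alleles are flanked by loxP sites in the usual notation. Ezh2 is the methyltransferase subunit of Polycomb repressive complex 2. The labels do not give the strain, MHC haplotype, age or sex of the mice, the Cre driver, any treatment, or whether the arrays came from separate animals. The p-values therefore reflect the spread among these arrays alone, and that spread may be technical.

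MHC class I molecules carry short peptides from the cell's own proteins to its surface, where CD8 T cells and natural killer cells read them. The proteasome cuts the peptides, the Tap transporter moves them into the endoplasmic reticulum, tapasin (the product of Tapbp) holds an empty heavy chain with its light chain beta-2-microglobulin next to the transporter, and loaded molecules travel to the surface. Nearly all nucleated cells, lymphocytes among them, make class I, and interferons raise the transcription of most of these genes.

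The start sites of H2-K1, H2-D1, B2m and Tap1 are shown because the elements known to carry constitutive and interferon-driven transcription of class I genes lie just upstream of them. The sequences are RefSeq's for GRCm38.p6, written 5′ to 3′ on the strand of the gene, and capitals mark matches to the letters searched.

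H2-K1: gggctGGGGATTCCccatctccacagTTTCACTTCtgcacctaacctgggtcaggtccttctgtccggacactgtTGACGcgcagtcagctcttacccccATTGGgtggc

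H2-D1: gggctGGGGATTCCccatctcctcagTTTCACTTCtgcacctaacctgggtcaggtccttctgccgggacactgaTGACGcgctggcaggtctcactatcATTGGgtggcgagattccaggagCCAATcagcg

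B2m: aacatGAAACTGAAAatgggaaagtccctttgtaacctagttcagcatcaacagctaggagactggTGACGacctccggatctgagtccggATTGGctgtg

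Tap1: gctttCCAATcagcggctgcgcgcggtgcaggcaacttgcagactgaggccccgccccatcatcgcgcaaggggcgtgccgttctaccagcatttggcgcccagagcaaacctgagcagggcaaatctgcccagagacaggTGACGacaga

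The H2-K1 stretch lies at chr17:34000354-34000463 on the minus strand, and the H2-D1 stretch at chr17:35262918-35263050 on the plus strand. The B2m stretch lies at chr2:122147543-122147643 and the Tap1 stretch at chr17:34187329-34187479, both on the plus strand. Both heavy chain stretches hold, in the same order, a kappaB match (GGGNNTTCC), a short interferon-type element (GAANNGAAA), a site alpha match (TGACG) and a CCAAT box (CCAAT). Over 110 aligned bases 99 were identical between H2-K1 and H2-D1, or 90.0%. B2m holds the longer interferon element (GAAANNGAAA) in place of the short one, with a site alpha match and a CCAAT box after it. It holds no match to the kappaB letters searched, which do not cover every form of that element.

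All letters were searched on both strands in windows from 250 bases upstream to 50 bases downstream of the annotated start site. Among 32851 such mouse windows, 5.82% held the kappaB letters, 3.44% the longer and 7.52% the short interferon letters, 20.8% site alpha and 37.4% CCAAT. The short interferon letters were added after the H2-K1 sequence was read. Their match in H2-K1, and in the closely similar H2-D1 stretch, is therefore no result. The longer letters matched the B2m window, and also that of H2-T23, whose signal no probe set reads alone. The Tap1 and Psmb9 genes lie head to head, with 225 bases between their start sites, so their windows overlap by 275 bases and hold the same site alpha and CCAAT matches. The Psmb8 window held a match to the interferon gamma activation letters (TTCNNNGAA), found in 8.30% of all windows, and the Tapbp window held CCAAT matches only. Of the member genes, 7 of the 8 with a window lie on chromosome 17, in the MHC, and B2m lies on chromosome 2. Tap2 had no window in the table.

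**Figure D1:**
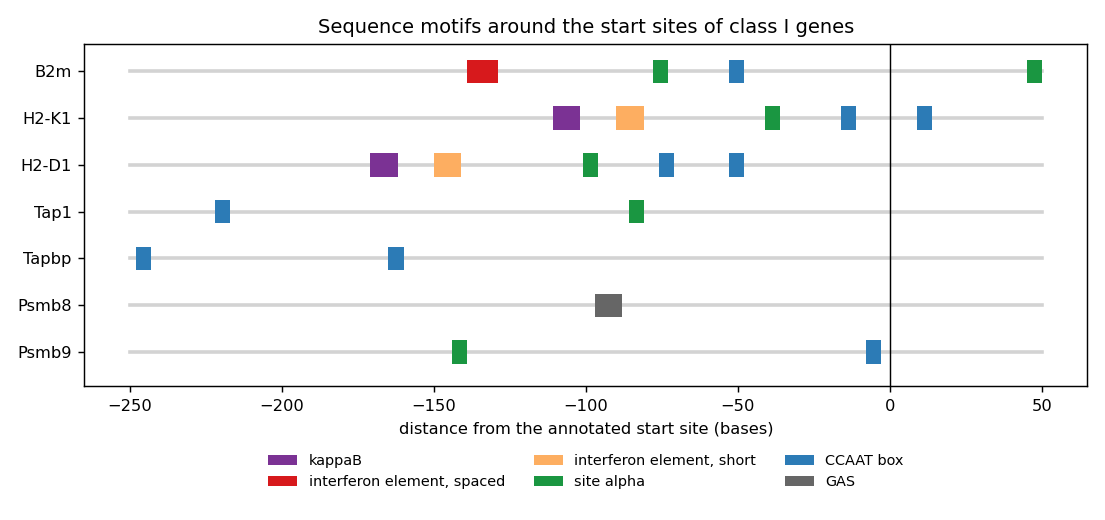
Matches to 6 sets of letters around the annotated start sites of 7 class I genes. The horizontal axis is the distance from the start site in bases, each grey line is the window searched and each coloured block is a match. H2-K1 and H2-D1 show the same order of kappaB, short interferon element, site alpha and CCAAT box, B2m starts with the longer interferon element, and the other windows hold fewer matches. The short interferon letters were added after the H2-K1 sequence was read, so their matches are no result.

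Ezh2 itself was read by a single probe set. It had normalised intensities of 282, 289 and 276 in Ezh2 deficient arrays 1, 2 and 3, against 579, 684 and 801 in Ezh2 fl/fl arrays 1, 2 and 3. Every deficient array lay below every Ezh2 fl/fl array, with a log2 difference of -1.16 (SE 0.13). Limma gave p = 7.83e-06 for this probe set and adjusted p = 0.0705 over all probe sets, and an exact permutation test of the 6 values gave p = 0.10, two-sided, the smallest it can give. The adjusted p was 0.0421 in the values as deposited, 0.0306 without Ezh2 fl/fl replicate 1, 0.0346 with array weights and 0.04997 with robust eBayes, so Ezh2 was called in these 4 of 15 alternative fits. The deleted exons are not given, and a probe set outside them need not report the deletion. On the first principal component Ezh2 fl/fl replicate 1 was at -41.4, away from the other arrays, which lay at 1.47 or higher.

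The class I genes did not pass the test in either direction. Intensities were quantile normalised and tested on the log2(intensity + 43.35) scale with limma, and a call needed an adjusted p under 0.05 over all 27022 tested probe sets. Of the 21 tested member probe sets 0 were called, where limma called 0.0037% of all tested probe sets (1 probe set). At an unadjusted p under 0.05 there was 1 member probe set, against 7.22% of all probe sets. It was a dim one of H2-D1 that passed the brightness filter only through its high deficient arrays. The log2 difference was above 0 for 12 member probe sets and below 0 for 9, where 49.3% of all probe sets lay above 0. This split followed the scaling: centring the deposited values on each array's median put 19 of the 21 above 0, and 63.7% of all probe sets with them. The groups did not overlap for 2 of the 21, against 13.1% of all probe sets, with 1 higher (6.55% of all probe sets) and 1 lower (6.54%). In bulk T cell RNA, fewer cells of a type and less RNA per cell cannot be told apart.

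For each of the 8 genes the probe set with the highest mean signal gave, under quantile normalisation, a narrow interval around no change. That scaling gives every array the same set of values, which can itself narrow the spread of bright probe sets. B2m 1449289_a_at ran from 22284 to 26508 as deposited and from 23378 to 25097 after it. The 8 log2 differences ran from -0.07 to 0.04, with standard errors of 0.041 to 0.098, and all 8 of the 95% intervals held 0. Taken as ratios of Ezh2 deficient over Ezh2 fl/fl, the lowest interval bound was 0.816, for Tap1, and the highest was 1.14, for Psmb9. Under the deposited scaling the differences ran from -0.04 to 0.13 with a highest bound of 1.22, and under its median centring from 0.05 to 0.21 with a highest bound of 1.39, both for H2-K1, and all 8 intervals again held 0 under each. The median over the 8 genes was 0.02, beside a median of -0.01 over 12275 tested genes read the same way. With any array left out 0 member probe sets were called, and this held without Ezh2 fl/fl replicate 1.

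**Figure D2:**
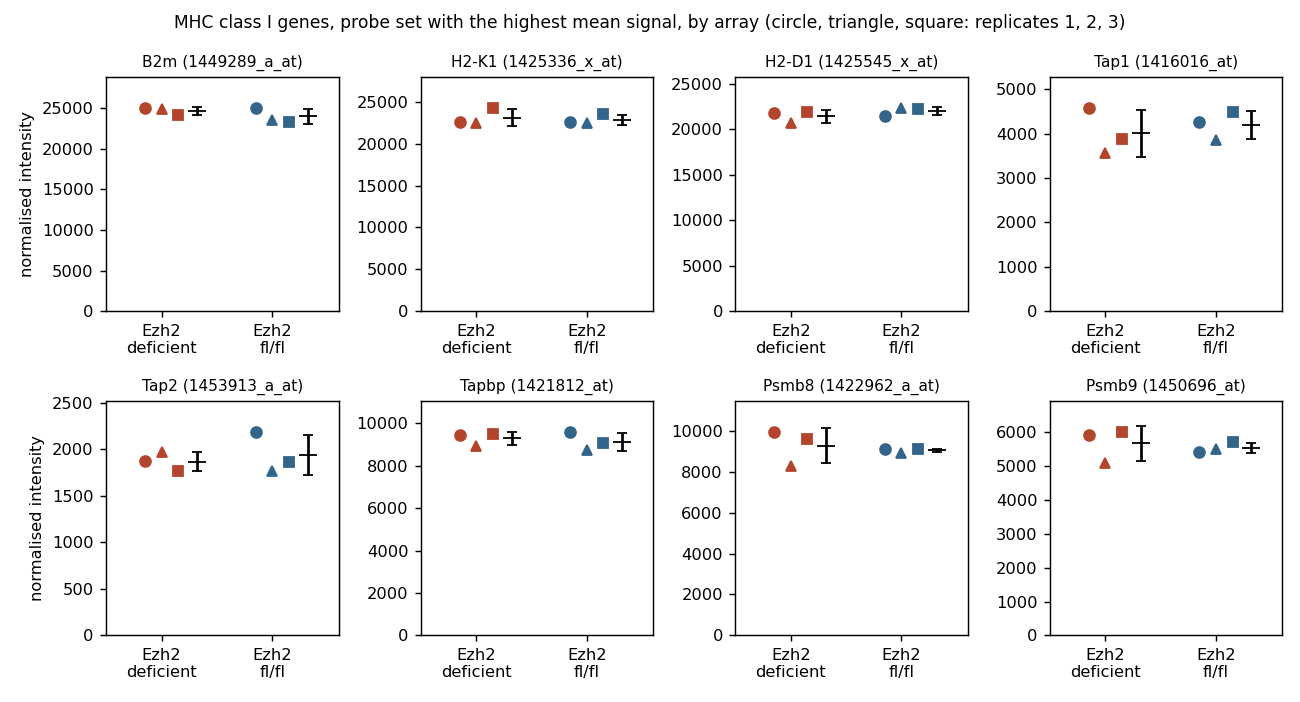
Normalised intensity of 8 class I genes in each array, each from its probe set with the highest mean signal. Ezh2 deficient arrays are on the left and Ezh2 fl/fl arrays on the right of each panel, symbols are replicates, and the black bar is the mean with SD (n = 3 each). The groups overlap in all 8 panels. Signals of different probe sets are on scales of their own.

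B2m encodes the light chain that classical class I molecules need for stable display at the surface. Its first probe set, 1449289_a_at, read 25045, 24977 and 24163 in Ezh2 deficient arrays 1, 2 and 3, against 25097, 23571 and 23378 in Ezh2 fl/fl arrays 1, 2 and 3. After quantile normalisation Ezh2 fl/fl replicate 1 was the highest of the 6, so the groups overlapped there. The log2 difference was 0.04 (95% interval -0.05 to 0.14, limma adjusted p = 0.851). As deposited, the deficient arrays read 26508, 24972 and 24907 and the Ezh2 fl/fl arrays 22284, 24170 and 23339, without overlap. The log2 difference was then 0.13 (limma adjusted p = 0.684), and 0.21 under median centring (limma adjusted p = 0.647). The second B2m probe set, 1452428_a_at, averaged 24120 ± 881 in deficient arrays and 23945 ± 572 in Ezh2 fl/fl arrays (SD, n = 3 each), a log2 difference of 0.01 (95% interval -0.08 to 0.10). Under quantile normalisation the interval of the ratio stayed below 1.10 with both probe sets. This bound held for neither probe set under the other scalings, where the log2 difference of 1452428_a_at was 0.09 as deposited and 0.18 under median centring.

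H2-K1 encodes a classical heavy chain that binds the peptide. Its probe set 1425336_x_at read 22654, 22456 and 24343 in Ezh2 deficient arrays, against 22569, 22456 and 23571 in Ezh2 fl/fl arrays. The arrays of both groups interleaved, with a log2 difference of 0.02 (95% interval -0.08 to 0.12, limma adjusted p = 0.947). The other 3 H2-K1 probe sets had log2 differences of 0.07 (1427746_x_at), -0.00 (1451931_x_at) and -0.12 (1450534_x_at), all with overlapping groups. All 4 carry the suffix x, which marks probe sets that can bind several transcripts, so signal from H2-D1 or another heavy chain gene cannot be told apart from that of H2-K1 on them.

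H2-D1, the other classical heavy chain gene, was read by 9 probe sets, of which 7 were tested. The probe set with the highest mean signal, 1425545_x_at, read 21760, 20655 and 21865 in Ezh2 deficient arrays, against 21472, 22395 and 22222 in Ezh2 fl/fl arrays. The lowest array was deficient replicate 2, and the log2 difference was -0.04 (95% interval -0.13 to 0.05, limma adjusted p = 0.859). Probe set 1426324_at, whose name carries no mark of shared probes, read 8615, 7579 and 7280 in deficient arrays, against 8711, 7637 and 6389 in Ezh2 fl/fl arrays. Ezh2 fl/fl arrays held both the highest and the lowest of these values, and the log2 difference was 0.05 (95% interval -0.19 to 0.30). Probe sets 1451784_x_at, 1451683_x_at and 1450170_x_at stood at 0.02, -0.07 and -0.12, and the dim 1451934_at at 0.03.

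The remaining tested H2-D1 probe set, 1427651_x_at, stood apart from the other 6. It read 175, 184 and 184 in Ezh2 deficient arrays, against 131, 28.3 and 67.2 in Ezh2 fl/fl arrays. All deficient arrays were higher than all Ezh2 fl/fl arrays, 1 of which lay below the constant of 43.35 added before taking logs, and the log2 difference was 1.01 (95% interval 0.35 to 1.67, limma adjusted p = 0.581, exact permutation p = 0.10, two-sided, the smallest that these group sizes allow). It did not pass over all probe sets, and it passed the brightness filter only narrowly, at a mean log2 value of 7.30 against a limit of 7.29. Its Ezh2 fl/fl arrays alone averaged below that limit, so it was tested only because its deficient arrays were high. Its difference, interval and lack of overlap are thus tied to the filter. In 4 of the 6 fits that left out an array the probe set fell below that filter and was not tested. It stood at 0.70 when Ezh2 fl/fl replicate 2 was left out, at 1.01 when Ezh2 fl/fl replicate 3 was, and at 0.53 with a constant 4 times higher. The 2 H2-D1 probe sets below the brightness filter averaged 110 ± 24.2 and 77.9 ± 28.3 in deficient arrays and 108 ± 33.1 and 74.8 ± 19.9 in Ezh2 fl/fl arrays (SD, n = 3 each).

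Some probe sets list a member beside another gene and so fall outside the rule; they were looked at after the other values were seen. The probe set shared by H2-K1 and H2-D1 (1424948_x_at) had a log2 difference of 0.01 (95% interval -0.17 to 0.20). Those shared by H2-T23 and H2-T-ps read 16375, 13286 and 14712 in Ezh2 deficient arrays against 14109, 12990 and 14908 in Ezh2 fl/fl arrays on 1449556_at, a log2 difference of 0.08, and stood at -0.28 on 1419658_at. H2-T23 encodes Qa-1, a non-classical heavy chain read by natural killer receptors. The groups overlapped on both, and neither signal can be given to H2-T23 alone.

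Tap1 and Tap2 encode the subunits of the peptide transporter. Tap1 probe set 1416016_at read 4583, 3551 and 3881 in Ezh2 deficient arrays, against 4251, 3854 and 4481 in Ezh2 fl/fl arrays. Deficient arrays were both the highest and the lowest, with a log2 difference of -0.07 (95% interval -0.29 to 0.15, limma adjusted p = 0.899). A second tested Tap1 probe set, 1448177_at, read 248, 255 and 251 in deficient arrays, against 285, 373 and 271 in Ezh2 fl/fl arrays. There all deficient arrays were lower, but the log2 difference of -0.25 had an interval holding 0 (-0.57 to 0.07, limma adjusted p = 0.725). The 2 untested Tap1 probe sets read 94.1 to 139 and 49.0 to 127 in deficient arrays, against 78.4 to 118 and 55.1 to 107 in Ezh2 fl/fl arrays. The single Tap2 probe set, 1453913_a_at, read 1870, 1965 and 1761 in deficient arrays, against 2184, 1765 and 1867 in Ezh2 fl/fl arrays. Ezh2 fl/fl replicate 1 was its highest array, and the log2 difference was -0.05 (95% interval -0.26 to 0.16), or 0.04 without that array.

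Tapbp encodes tapasin, which bridges the transporter and the empty heavy chain. Probe set 1421812_at read 9452, 8931 and 9481 in Ezh2 deficient arrays, against 9586, 8741 and 9067 in Ezh2 fl/fl arrays. The Ezh2 fl/fl values enclosed those of the deficient arrays, with a log2 difference of 0.02 (95% interval -0.10 to 0.15, limma adjusted p = 0.938). Its other probe set, 1450378_at, stood at -0.08 (95% interval -0.25 to 0.09), also with overlapping groups.

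Psmb8 and Psmb9 encode catalytic subunits that replace constitutive ones in the immunoproteasome. Psmb8 probe set 1422962_a_at read 9944, 8302 and 9586 in Ezh2 deficient arrays, against 9096, 8931 and 9096 in Ezh2 fl/fl arrays. Deficient replicates 1 and 3 lay above all Ezh2 fl/fl arrays and deficient replicate 2 below them, and the log2 difference was 0.03 (95% interval -0.12 to 0.19, limma adjusted p = 0.935). Psmb9, read by 1450696_at, had 5912, 5091 and 6009 in deficient arrays, against 5407, 5497 and 5705 in Ezh2 fl/fl arrays. Its arrays fell in the same arrangement, with a log2 difference of 0.03 (95% interval -0.13 to 0.19, limma adjusted p = 0.943). The second Psmb8 probe set, 1444619_x_at, averaged 879 ± 105 in deficient arrays and 781 ± 164 in Ezh2 fl/fl arrays (SD, n = 3 each), a log2 difference of 0.18 (95% interval -0.17 to 0.53). For Psmb8 and Psmb9 the value without deficient replicate 2 was 0.11 each.

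**Figure D3:**
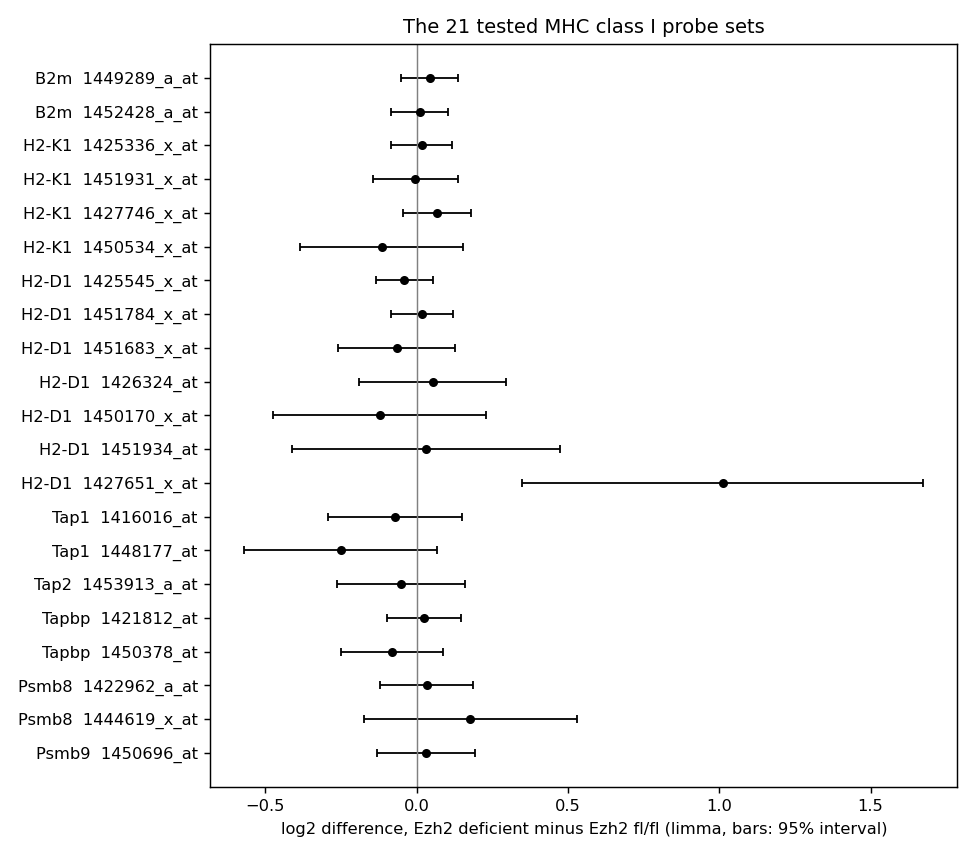
Log2 difference, Ezh2 deficient minus Ezh2 fl/fl, of the 21 tested class I probe sets. Points are limma estimates and bars 95% intervals, and probe sets of a gene are ordered from high to low mean signal. All intervals but that of the H2-D1 probe set 1427651_x_at hold 0.

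Genes with related roles in class I presentation were taken from lists, each gene by its probe set with the highest mean signal, and limma called 0 of them over all probe sets. Of 11 tested other heavy chain and class I-like genes, 4 were higher and 7 lower (6 higher under median centring), with a median log2 difference of -0.01 and 3 at an unadjusted p under 0.05, where 7.22% of all probe sets were. Fcgrt, the neonatal Fc receptor chain, averaged 339 ± 30.7 in Ezh2 deficient arrays and 531 ± 79.3 in Ezh2 fl/fl arrays (log2 difference -0.58, adjusted p = 0.427). H2-T24, a non-classical heavy chain gene, read 960, 679 and 898 in deficient arrays, against 552, 488 and 663 in Ezh2 fl/fl arrays (log2 difference 0.54, adjusted p = 0.558). H2-M3, whose product presents formylated peptides, stood at 0.18 (adjusted p = 0.648). The groups of all 3 did not overlap, as for 13.1% of all probe sets.

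Loading and peptide-trimming genes had a median of 0.04, with 9 of 14 higher and 13 under median centring. Blmh, a cytosolic aminopeptidase, was at 0.31 (adjusted p = 0.668), the loading chaperone gene Calr at -0.10 (adjusted p = 0.716) and the protease gene Ide at 0.13 (adjusted p = 0.750). The other inducible proteasome genes lay close to 0, and 3 of 3 were above it under both other scalings. Psmb10, the third immunoproteasome subunit, was at -0.01 (95% interval -0.25 to 0.23), the proteasome activator gene Psme1 at -0.02 (95% interval -0.13 to 0.09) and the assembly factor gene Pomp at 0.06 (95% interval -0.10 to 0.21). Of 14 constitutive proteasome subunit genes 6 were higher and 8 lower, but 9 were higher in the values as deposited and 12 once these were median centred. Psmb5, whose product is the subunit that the Psmb8 product replaces, averaged 2589 ± 37.1 in Ezh2 deficient arrays and 3118 ± 442 in Ezh2 fl/fl arrays (log2 difference -0.26, adjusted p = 0.636), Psmb3 was at -0.19 (adjusted p = 0.617) and Psma1 at -0.11 (adjusted p = 0.796).

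Of 13 tested transcription factor genes that act on class I promoters or in interferon signalling, 10 were higher, with a median of 0.10, where 49.3% of all probe sets were higher. As deposited 10 were higher, and under median centring 12, where 63.7% of all probe sets were. Irf9, the DNA-binding part of the type I interferon-activated complex, read 2835, 2441 and 2914 in Ezh2 deficient arrays, against 2273, 2115 and 2331 in Ezh2 fl/fl arrays (log2 difference 0.28, adjusted p = 0.619). Irf2 was at 0.22 (adjusted p = 0.707) and Nfyc, a subunit of the CCAAT-binding factor, at 0.15 (adjusted p = 0.695). Nlrc5, the class I transactivator, was looked at after its value was seen and stood at 0.12 (95% interval -0.07 to 0.32), with overlapping groups. Of 7 interferon receptor and kinase genes 4 were higher and 3 lower, with Tyk2 at -0.27, Ifngr1 at 0.21 and Jak2 at 0.17 (adjusted p = 0.636, 0.636 and 0.712).

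Type I interferon response genes without the class I members stood higher on the same arrays. Of 38 tested genes 37 had a positive difference (37 and 38 under the other scalings), where 49.3% of all probe sets did, and the median was 0.55. Limma called 0 over all probe sets, and 30 were higher at an unadjusted p under 0.05, where 3.84% of all probe sets were. Among these 30, Mx2 read 21.3, 28.5 and 300 in Ezh2 fl/fl arrays, which alone averaged below the brightness limit. Mx2 was tested only because its deficient arrays were high. Oas1a, an antiviral oligoadenylate synthetase, read 2659, 1600 and 2443 in Ezh2 deficient arrays, against 780, 1004 and 976 in Ezh2 fl/fl arrays (log2 difference 1.22, adjusted p = 0.161). Ifi44l was at 1.67 (adjusted p = 0.264) and the helicase gene Ddx60 at 0.73 (adjusted p = 0.161). Of 15 tested interferon gamma inducible genes 14 were higher, where 49.3% of all probe sets were, with a median of 0.26 and 0 called. As deposited 13 were higher, and under median centring 14, where 63.7% of all probe sets were. Cxcl10, a chemokine, was at 0.92 (adjusted p = 0.455), and the GTPase genes Iigp1 at 0.81 (adjusted p = 0.558) and Gbp6 at 0.65 (adjusted p = 0.512). Without Ezh2 deficient replicate 2, limma called Oas1a (log2 difference 1.44, adjusted p = 0.0258), Iigp1 (1.12, adjusted p = 0.0258) and the nucleotide kinase gene Cmpk2 of these lists, and still 0 class I probe sets. These lists were chosen with earlier results of these arrays known.

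By array, the median of the type I interferon list relative to the Ezh2 fl/fl mean was 0.72, 0.24 and 0.73 in Ezh2 deficient arrays 1, 2 and 3, against -0.15, -0.02 and 0.22 in Ezh2 fl/fl arrays 1, 2 and 3. The median of the interferon gamma list was 0.43, -0.00 and 0.32 in deficient arrays, against -0.05, 0.03 and 0.03 in Ezh2 fl/fl arrays. Deficient replicate 2 was the lowest deficient array for both lists. The class I genes gave medians of 0.06, -0.06 and 0.03 in deficient arrays, against 0.02, -0.03 and 0.01 in Ezh2 fl/fl arrays. Deficient replicate 2 was again the lowest deficient array, and the 6 class I medians ran from -0.0617 to 0.0559 under quantile normalisation. They ran from -0.0579 to 0.143 in the values as deposited and from -0.16 to 0.24 under median centring, with deficient replicate 1 the highest and Ezh2 fl/fl replicate 1 the lowest in both. The difference between the class I genes and the interferon lists was not tested.

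**Figure D4:**
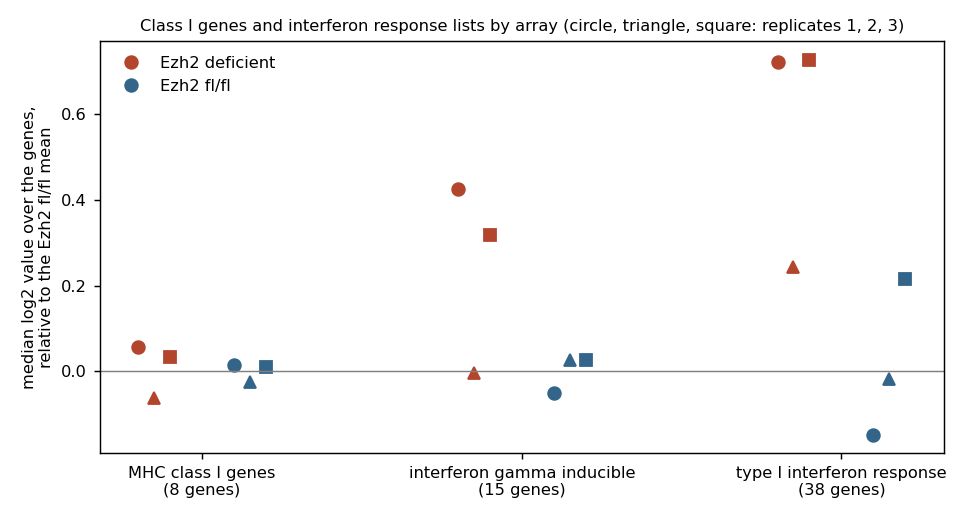
Median log2 value over the genes of a list in each array, relative to the mean of the Ezh2 fl/fl arrays, for 8 class I genes, 15 interferon gamma inducible genes and 38 type I interferon response genes. Ezh2 deficient arrays are left of Ezh2 fl/fl arrays, and symbols are replicates. With quantile normalisation the class I medians lie between -0.0617 and 0.0559, while the type I interferon medians of deficient replicates 1 and 3 reach 0.72 and 0.73.

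The mean profile of the 8 class I genes over the 6 arrays was closest, among 12267 other tested genes, to that of Tespa1, which acts in T cell receptor signalling, with a Pearson r of 0.98 over 6 arrays. Chmp5 (0.98), Epc1 (0.98), Parl (0.97) and Gp6 (0.96) followed, and 71 genes had an r above 0.9. The profile itself ran only from -0.07 in Ezh2 deficient replicate 2 to 0.05 in deficient replicate 1, on the log2 scale.

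Of the T cell markers 14 of 14 with a probe set passed the brightness filter, 7 of them higher and 7 lower (13 higher under median centring), and 0 were called. The CD8 co-receptor gene Cd8b1 was lower in all Ezh2 deficient arrays (log2 difference -0.17, adjusted p = 0.581), the surface receptor gene Cd6 was higher in all of them (0.23, adjusted p = 0.619), and the groups overlapped for Cd5 (0.13, adjusted p = 0.710). The Cd8b1 difference shrank to -0.12 as deposited and to -0.04 under median centring. For Cd6 it was 0.27 and 0.35 under these scalings. Cd3e, a T cell receptor complex gene named for the identity of the cells and not for its p, averaged 6633 ± 989 in deficient arrays and 6764 ± 111 in Ezh2 fl/fl arrays (SD, n = 3 each).

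Of the marker genes of other cells that also make class I, limma called 0. Of 7 tested B cell markers 3 were higher and 4 lower, with Cd72 at -0.48 (adjusted p = 0.520), the kinase gene Blk at -0.34 (adjusted p = 0.722) and the B cell transcription factor gene Pax5 at 0.33 (adjusted p = 0.751). The groups did not overlap for Cd72, lower in deficient arrays, and for Pax5, higher in them, as for 13.1% of all probe sets. Pax5 read 89.3, 112 and 119 in Ezh2 fl/fl arrays, which alone averaged below the brightness limit. It was tested only because its deficient arrays were high, so its difference and lack of overlap are tied to the filter. The summed intensity of 12 B cell marker genes was 2996 to 3156 in deficient arrays and 3379 to 3847 in Ezh2 fl/fl arrays, but without Cd72, left out after its values were seen, it overlapped, at 1772 to 1860 in deficient arrays and 1688 to 1962 in Ezh2 fl/fl arrays.

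The dendritic cell list had 9 tested genes, 6 of them higher and 3 lower. Those of smallest p were the chemokine gene Ccl22 at 0.51 (adjusted p = 0.619), the actin-bundling gene Fscn1 at 1.18 (adjusted p = 0.636) and Bst2, which is also in the type I interferon list, at 0.42 (adjusted p = 0.710). Ccl22 read 102, 105 and 122 in Ezh2 fl/fl arrays, which alone averaged below the brightness limit. It was tested only because its deficient arrays, at 194, 160 and 169, were high, so its difference is tied to the filter. The summed intensity of 13 dendritic cell marker genes was 5131 to 7112 in Ezh2 deficient arrays and 4529 to 5075 in Ezh2 fl/fl arrays. Without Bst2 and Fscn1, left out after their values were seen, the sums overlapped, at 2998 to 3182 in deficient arrays and 2846 to 3038 in Ezh2 fl/fl arrays. Without Fscn1 alone they also overlapped, at 4367 to 5763 in deficient arrays and 4236 to 4552 in Ezh2 fl/fl arrays. Without Bst2 alone they did not, at 3763 to 4532 in deficient arrays and 3202 to 3729 in Ezh2 fl/fl arrays. Cd79a and Fcer2a of the B cell list and Flt3 and Batf3 of the dendritic cell list were among the markers below the brightness filter. The sums overlapped between the groups for 16 monocyte and macrophage, 10 natural killer, 10 stromal and 4 erythroid marker genes. Of the tested genes, 2 of 9, 4 of 7, 2 of 5 and 0 of 1 were higher in deficient arrays. The smallest p in each list was that of Csf1r at -0.42, Gzma at 0.63, Pecam1 at -0.20 and Hba-a1 at -0.38 (adjusted p = 0.632, 0.584, 0.714 and 0.648). The groups of these genes did not overlap, as for 13.1% of all probe sets.

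MHC class II genes, which such cells express, went both ways, with 6 of 10 higher (5 under the deposited scaling) and 0 called. The groups did not overlap for 3 lower genes and 1 higher gene of the 10, against 13.1% of all probe sets. At an unadjusted p under 0.05 there were 3 lower and 2 higher, where 7.22% of all probe sets were in either direction. The lower genes were H2-Ob at -0.55, H2-Oa at -0.40 and H2-DMa at -0.38 (adjusted p = 0.619, 0.442 and 0.619), which encode chains of the molecules that control the loading of class II peptides. The higher ones, picked out once their values were known, were the class II chain gene H2-Aa at 0.49 and the invariant chain gene Cd74 at 0.32 (adjusted p = 0.669 and 0.692). The part of these other cells in the class I values was not tested.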

How the data were processed

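The deposited table holds linear intensities of 45101 probe sets on each array, and how the authors computed them is not given in the sources used here. On every array the deposited intensities had a trimmed mean (2% left out at each end) of 500.002. Array medians differed by 15.2%, above a tolerance of 10%, so the arrays were quantile normalised. The constant 43.35, the 20th percentile of positive values, was added before taking log2, which understates differences at low signal. Controls (64) were not tested, nor were probe sets under the 40th percentile of mean log2 signal, leaving 27022. Ezh2 deficient minus Ezh2 fl/fl was fitted over all 6 arrays with limma 3.58.1 in R 4.3.3 (eBayes with an intensity trend, 4 residual degrees of freedom, two-sided). P-values were adjusted by Benjamini-Hochberg over these 27022. The fit was tested on simulated data.

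Named genes are all member probe sets, Ezh2, up to 3 genes of smallest p per list, and the 5 genes with the most similar profile. Outside this rule, Cd3e and markers below the filter are named for cell identity, and Nlrc5, H2-Aa, Cd74 and Cmpk2 after their values were seen. Members and lists were chosen with earlier results of these data known. The platform annotation gave 34945 probe sets 1 symbol, 932 several and 9160 none. Array number limits the precision. Promoter windows matched 8 of 9 members by symbol, and stretches were aligned with Biopython 1.88. Alternatives were other scalings, constants, filters and eBayes settings, array weights (statmod 1.5.0 for robust eBayes) and each array left out.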

Additional observations from a re-analysis of the deposited data

How the results depend on the processing

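No paired analysis was possible because the sample titles count through all 6 arrays and share no number between groups. The member probe sets called stayed at 0 under all 15 alternative fits and at an adjusted p under 0.10, and the smallest adjusted p of a member was 0.422. The Ezh2 difference kept its direction throughout (-1.29 to -0.91), but its adjusted p, 0.0705, fell below 0.05 in the values as deposited (-1.1877), with robust eBayes (-1.156), with array weights (-1.2029) and without Ezh2 fl/fl replicate 1 (-1.2855, the lowest with single arrays left out, where the highest was -1.0458), and the cause was not tested. Over all probe sets limma called 1, but 2 with median centring, 3 in each of those 4 fits and 6 without Ezh2 deficient replicate 2. The median of the class I genes, 0.02, was 0.16 with deposited values centred on the array median, beside 0.06 for all tested probe sets, and the cause was not tested. With single arrays left out it ran from -0.01 to 0.04. Counts of higher and lower genes, calls in the lists, array medians under the other scalings and marker sums without single genes were added after the data were seen. The filter at the 60th percentile left some dim members without a value.

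Of 308 member values under the alternatives, 30 changed sign, on 16 probe sets, and 0 became significant by limma. Under the deposited scaling the signs turned for H2-K1 1451931_x_at (0.072), H2-D1 1425545_x_at (0.058) and 1451934_at (-0.038), Psme1 (0.049) and Psmb10 (0.026). With median centring they turned for H2-K1 1451931_x_at (0.16) and 1450534_x_at (0.0018), H2-D1 1425545_x_at (0.14) and 1451683_x_at (0.066), Tap1 1416016_at (0.046), Tap2 (0.052), Tapbp 1450378_at (0.029), Calr (0.024), Psme1 (0.13), Psmb10 (0.11) and Psma1 (0.017). With array weights H2-K1 1451931_x_at was at 0.0009. Signs also turned with single arrays left out. The ranges were -0.014 to 0.039 for B2m 1452428_a_at, -0.020 to 0.039 for H2-K1 1425336_x_at and -0.068 to 0.059 for 1451931_x_at. For H2-D1 they were -0.018 to 0.039 (1451784_x_at), -0.12 to 0.027 (1451683_x_at), -0.063 to 0.16 (1426324_at), -0.23 to 0.076 (1450170_x_at) and -0.12 to 0.13 (1451934_at). They were -0.17 to 0.012 for Tap1 1416016_at, -0.11 to 0.037 for Tap2, -0.0052 to 0.0615 for Tapbp 1421812_at, -0.019 to 0.11 for Psmb8 1422962_a_at and -0.014 to 0.11 for Psmb9. Outside the members they were -0.11 to 0.087 for Psmb10, -0.0027 to 0.091 for Pomp and -0.0435 to 7e-04 for Psme1.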
